A study of Mus musculus with 6 samples.

Results

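Dpep1, Pi16, Clec3b, Fap, Thy1, Serpinf1, Gsn, Dpt and Pcolce are genes that fibroblasts of connective tissue are known to express, none of which encodes a collagen. They were followed here in sorted endothelial cells of the mammary gland. The 9 genes were chosen by name as fibroblast markers, with their values in the contrast described below already known, and stand among 18193 genes that had a probe set of their own on the array. A probe set, the group of short probes that together read 1 transcript, was used where the platform annotation gave it exactly 1 gene, which held for 18 probe sets of these genes out of 45037 analysed. The probe set with the highest mean over all 6 arrays represented a gene. Since the contrast chose the genes, their differences are given as a description, without a test.

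Endothelial cells were taken by collagenase digestion of mammary tissue and sorting on CD31, from FVB/N mice aged 9 weeks, and 6 RNA samples were measured on 1 Affymetrix array each. All mice carried PyMT, the polyoma middle T oncogene, expressed in the epithelium. They also carried 1 Ets2db allele, a knockout allele of the transcription factor Ets2 present in every cell, and 1 Ets2loxP allele that Cre recombinase can delete. The 3 control samples had the genotype PyMT;Ets2db/loxP, and the 3 deleted samples had PyMT;Fsp-cre;Ets2db/loxP. Fsp-cre is driven by the promoter of Fsp1, also named S100a4, so it targets fibroblasts, and the sorted endothelial cells were not its intended target. The control samples therefore had a single working copy of Ets2 and were not wild type. The source field of the control samples speaks of no oncogene, but their titles, descriptions and genotypes name PyMT, which was followed.

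Fibroblasts make and remodel the collagen network of connective tissue, and they do so with secreted processing proteins, surface proteases and small proteins that bind collagen fibrils. Adventitial fibroblasts, which lie around vessels, are known for Pi16 and Clec3b, while Fap is known from activated fibroblasts of tumors and wounds. Several of these genes are not limited to fibroblasts, since Thy1 also marks mouse T cells and Gsn is active in many cell types.

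The signal given here is the log2 value of the Robust Multichip Average (RMA), and differences were taken on that scale as deleted less control, between group means. Signals of different probe sets do not order the amounts of their transcripts, so each gene was compared only with itself. In a bulk sample, fewer fibroblasts among the sorted cells and less RNA per fibroblast cannot be told apart. The array medians lay between 7.02 and 7.07. Control replicate 3 stood apart on the first principal component, at 70.2 against -37.1 to 35.8 for the other arrays. Its signal of 3' over 5' probe sets, a sign of RNA quality, was also the highest, at 1.31 for Gapdh and 1.67 for Actb on the log2 scale. The other arrays lay between 0.75 and 1.01 for Gapdh and between 0.99 and 1.29 for Actb. Ets2 in control arrays was at 14.38 ± 0.12 and in deleted arrays at 14.41 ± 0.10 (SD, n = 3 each), which does not check the labels because the sorted cells were not the target of the deletion.

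All 9 genes had a lower mean in deleted samples, but in every one of them the values of the groups overlapped. The differences ran from -1.13 for Dpep1 to -0.01 for Gsn, and the latter turned to 0.01 when each array was centred on its median. Of all 18193 genes, 49.1% had a difference below 0. Groups without overlap and lower in deleted samples were found for 0 of the 9 genes and for 2.7% of all genes. The median difference was -0.26 over the 9 genes and 0.00 over all genes. Dpep1, Dpt and Pi16 lay below -0.5, Thy1 lay at -0.47, and the other 5 lay within 0.3 of 0. The 95% interval from limma's moderated fit excluded 0 for Dpep1 alone. In that fit 0 of the 18 probe sets had an adjusted p under 0.05, as had 0% of all 45037, with the smallest adjusted p at 0.9999. At an unadjusted p under 0.05, 934 of all 45037 probe sets passed, fewer than the share of 0.05 expected without any difference.

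**Figure D1:**
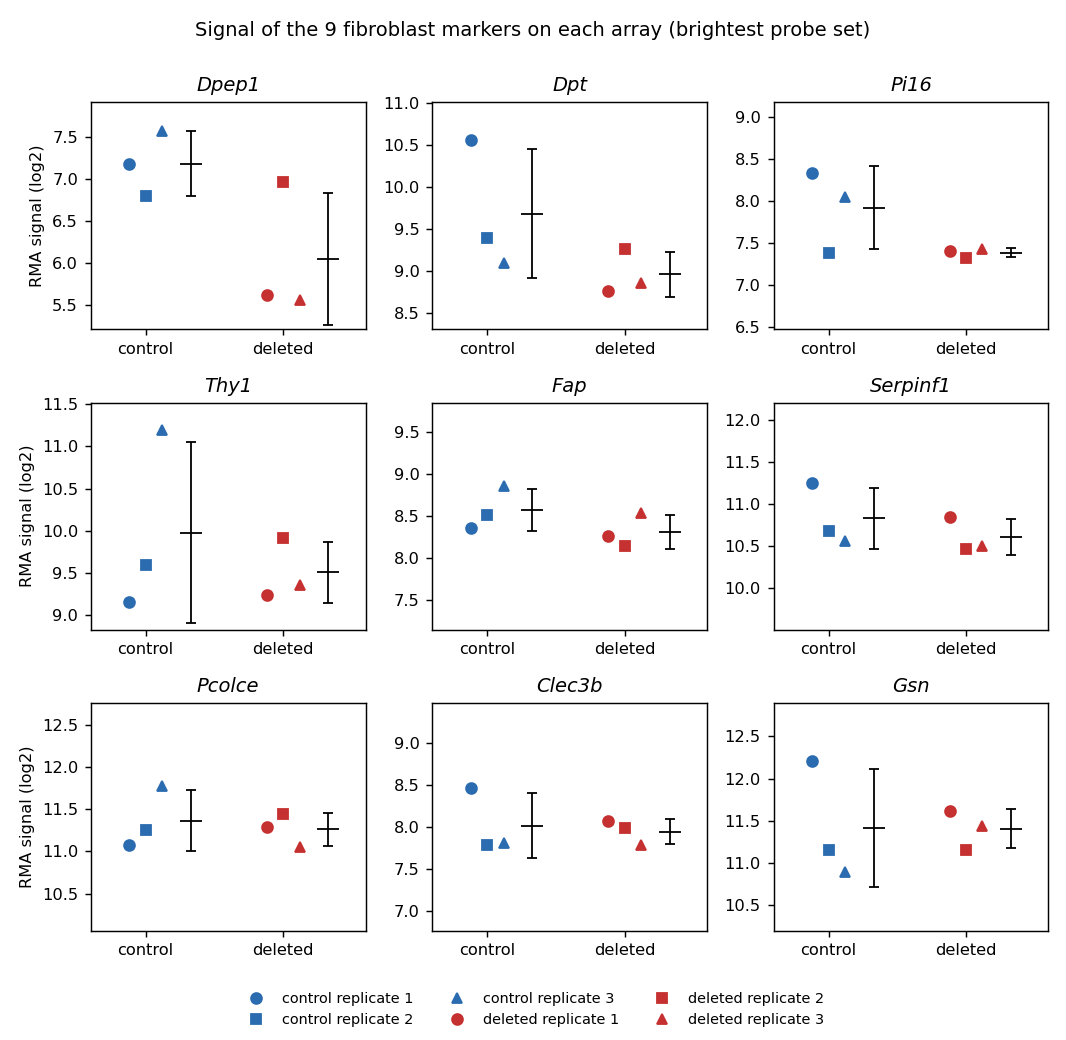
RMA signal (log2, vertical axis, each panel spanning the same width) of the brightest probe set of the 9 genes on the 3 control (blue) and 3 deleted (red) arrays, with the marker shape giving the replicate and black bars the mean ± SD. The groups overlap in all 9 panels, and Pi16 shows the narrowest deleted group, at 7.39 ± 0.06.

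The genomic sequence around annotated start sites of Dpep1, Pi16 and Dpt, the 3 genes with the largest differences, is shown to let these windows be compared. RefSeq windows on the build GRCm38.p6, from 250 bases before to 50 after an annotated start, were found for 6 of the 9 genes, as 8 windows of which Gsn had 3. No entry was found for Clec3b, Fap and Thy1. The Dpep1 window lies at chr8:123185985-123186284, the Pi16 window at chr17:29318632-29318931 and the Dpt window at chr1:164796413-164796712, all on the plus strand. Capitals mark the motif matches found on either strand.
Dpep1: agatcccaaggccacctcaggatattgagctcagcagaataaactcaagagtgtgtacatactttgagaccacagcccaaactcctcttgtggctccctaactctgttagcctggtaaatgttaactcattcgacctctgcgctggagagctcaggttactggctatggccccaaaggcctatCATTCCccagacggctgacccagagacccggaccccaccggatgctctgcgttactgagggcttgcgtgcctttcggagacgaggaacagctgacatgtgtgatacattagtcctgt
Pi16: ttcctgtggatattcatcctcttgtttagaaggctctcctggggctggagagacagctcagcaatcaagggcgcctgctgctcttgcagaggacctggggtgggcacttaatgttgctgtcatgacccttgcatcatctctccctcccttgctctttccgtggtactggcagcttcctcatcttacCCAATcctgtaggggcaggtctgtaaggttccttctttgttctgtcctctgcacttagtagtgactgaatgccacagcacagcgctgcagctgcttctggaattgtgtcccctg
Dpt: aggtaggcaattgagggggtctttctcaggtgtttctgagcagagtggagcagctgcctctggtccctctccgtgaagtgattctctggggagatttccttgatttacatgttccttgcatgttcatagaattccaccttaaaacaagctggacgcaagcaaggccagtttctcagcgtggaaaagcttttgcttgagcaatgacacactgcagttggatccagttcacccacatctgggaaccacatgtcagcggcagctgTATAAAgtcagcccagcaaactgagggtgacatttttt

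Each of these windows held 1 match, to a different motif. The Dpep1 window matched the TEAD motif GGAATG on the opposite strand at -67, a motif held by 14.7% of all 32851 windows. The Pi16 window held the CCAAT box at -64, found in 37.4% of all windows. The Pi16 gene as annotated begins further upstream, at 29318796, so this match lies inside the gene. The start site of the Pcolce window also lies inside its annotated gene. The Dpt window held TATAAA at 13 bases into the gene, found in 13.6%. GGAAGT, a longer form of the ETS core GGAA, was in 1 of the 8 windows, a Gsn window, against 23.8% of all windows. The shorter core GGAA was not searched, and each of the printed windows holds it. The AP-1 motif TGANTCA was in 0 of the 8 and in 7.81% of all windows, and the GC box GGGCGG was in 4 windows of Gsn and Pcolce and in 35.7% of all. CCAAT was in 4 windows of Pi16, Serpinf1 and Gsn. A match gives letters and not a bound site, and these letters may occur outside a window.

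Dpep1, a dipeptidase anchored on the cell surface that cleaves leukotriene D4, had the largest difference. Its signal was 7.19, 6.80 and 7.57 in control replicates 1 to 3 and 5.62, 6.96 and 5.57 in deleted replicates 1 to 3. Deleted replicates 1 and 3 lay below all control arrays, while deleted replicate 2 lay between control replicates 2 and 1. The means were 7.18 ± 0.39 and 6.05 ± 0.79 (SD, n = 3 each), a difference of -1.13 (95% interval -2.07 to -0.19) or 2.19-fold lower. With 1 array left out the difference ranged from -1.59 without deleted replicate 2 to -0.89 without deleted replicate 3. A dimmer Dpep1 probe set read 7.09, 6.70 and 6.85 in control and 6.20, 5.82 and 5.42 in deleted samples. On that probe set the groups did not overlap, as for 2.83% of all probe sets in the same direction, and the difference was -1.06 (95% interval -1.59 to -0.53). Both Dpep1 probe sets were dim, with means over all arrays of 6.62 and 6.35, below the median of 7.03 over all probe sets. Both passed the thresholds of the study (more than 2-fold, and an unadjusted p under 0.05), which 0.0777% of all probe sets passed as lower. No other member passed them. Dpep1 belongs to the genes that the study itself called on these arrays, so its size is no independent evidence.

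Fap and Thy1 are the other surface proteins. Fap, a serine protease of the dipeptidyl peptidase family, read 8.36, 8.51 and 8.85 in control and 8.26, 8.15 and 8.53 in deleted samples. Deleted replicates 1 and 2 lay below all control arrays, and deleted replicate 3 was above control replicates 1 and 2. The difference was -0.26 (95% interval -0.70 to 0.18). It stayed negative with any 1 array left out, between -0.37 and -0.12.

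Thy1, a glycoprotein anchored in the membrane of fibroblasts and T cells, read 9.15, 9.59 and 11.19 in control and 9.24, 9.91 and 9.35 in deleted samples. A single array, control replicate 3, stood above the rest, which all lay within the range from 9.15 to 9.91. The difference of -0.47 (95% interval -1.66 to 0.71) turned to 0.13 without that array. In control replicate 3, the mean deviation of 8 pan-leukocyte markers was 0.63 and that of 12 macrophage markers was 0.75, each the highest of the 6 arrays. The 6 T cell markers were at 0.08 there, below the 0.38 of control replicate 1 in which Thy1 was lowest. The part of other cells in the Thy1 signal was not tested.

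Pi16, a secreted protein of the cysteine-rich CAP family, was one of the 3 genes below -0.5. It read 8.34, 7.38 and 8.05 in control and 7.41, 7.32 and 7.43 in deleted samples. Control replicates 1 and 3 lay above all deleted arrays, and control replicate 2 lay among them. The means were 7.92 ± 0.49 and 7.39 ± 0.06 (SD, n = 3 each), a difference of -0.53 (95% interval -1.11 to 0.05). It ranged from -0.80 without control replicate 2 to -0.32 without control replicate 1. A second Pi16 probe set differed by -0.27, with the groups overlapping.

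Clec3b encodes tetranectin, a secreted lectin that binds plasminogen. It read 8.46, 7.78 and 7.81 in control and 8.07, 7.98 and 7.78 in deleted samples. Only control replicate 1 was above the deleted arrays, and the difference was -0.07 (95% interval -0.58 to 0.43). Without control replicate 1 it turned to 0.15, and without deleted replicate 3 to 0.01. Among genes of adventitial fibroblasts, the group known for Pi16 and Clec3b, 4 of 10 were lower in deleted samples, with a median of 0.01. The 3 with the largest differences were the ferritin receptor Scara5 at -0.44, the semaphorin Sema3c at -0.36 and Efhd1 at 0.35, and Dpp4 was at -0.15. Scara5 was the 1 gene of the 10 without overlap between the groups, lower in deleted samples as for 2.7% of all genes.

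Serpinf1 encodes PEDF, a secreted serpin that does not inhibit proteases and is known to restrain vessel growth. It read 11.25, 10.67 and 10.56 in control and 10.85, 10.46 and 10.50 in deleted samples. The highest value was again that of control replicate 1, and the difference was -0.23 (95% interval -0.74 to 0.29). Without control replicate 1 it was -0.02. A second Serpinf1 probe set had the opposite sign, with 8.23, 7.63 and 7.12 in control and 7.86, 7.79 and 7.87 in deleted samples, a difference of 0.18. The 2 probe sets thus gave no common direction.

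Dpt and Pcolce act on collagen outside the cell. Dpt encodes dermatopontin, which binds decorin and collagen fibrils. It read 10.56, 9.40 and 9.10 in control and 8.77, 9.26 and 8.86 in deleted samples. Control replicate 1 stood over 1 log2 unit above every other array, whereas control replicate 3 lay below deleted replicate 2. The means were 9.69 ± 0.77 and 8.96 ± 0.26 (SD, n = 3 each), a difference of -0.72 (95% interval -1.60 to 0.16) or 1.65-fold lower. Without control replicate 1 it was -0.28.

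Pcolce, the enhancer of the procollagen C-proteinase that trims fibrillar collagens, read 11.07, 11.26 and 11.77 in control and 11.29, 11.44 and 11.05 in deleted samples. Control replicate 3 was highest, and the other arrays of both groups were mixed. The difference was -0.11 (95% interval -0.62 to 0.41) and turned to 0.10 without control replicate 3. A second Pcolce probe set read 10.32, 10.10 and 10.04 in control and 10.51, 10.54 and 10.33 in deleted samples. There every deleted array lay above every control array, as for 3.61% of all probe sets, and the difference was 0.31. For Pcolce, as for Serpinf1, the sign therefore depended on the probe set.

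Gsn encodes gelsolin, which severs actin filaments and exists in a form inside the cell and a form secreted into plasma. Its brightest probe set read 12.20, 11.15 and 10.88 in control and 11.62, 11.15 and 11.44 in deleted samples. The control arrays enclosed all deleted arrays, and the difference was -0.01 (95% interval -0.81 to 0.79). Without control replicate 1 it turned to 0.38. It was 0.11 when deleted replicate 2 was left out, and -0.28 when control replicate 3 was. The 5 further Gsn probe sets differed by -0.18 to 0.10. The widest of them read 11.05, 9.75 and 8.69 in control and 10.16, 9.56 and 10.07 in deleted samples, with the same 2 control arrays at the ends.

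Over all 18 probe sets of the 9 genes, 14 were lower and 4 were higher in deleted samples, whereas 47.3% of all probe sets were lower. Besides the second Dpep1 probe set, which was lower without overlap, only the second Pcolce probe set had groups without overlap. Clec3b, Fap, Thy1 and Dpt had 1 probe set each, so no second reading was at hand for them.

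**Figure D2:**
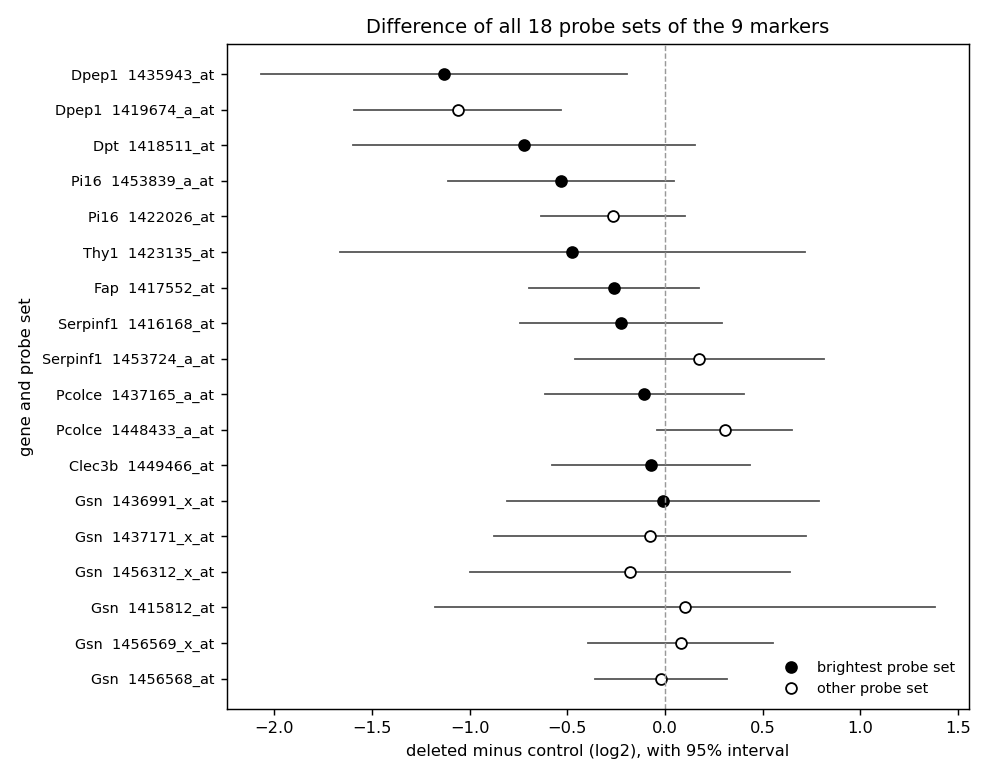
Difference between group means, deleted minus control (log2, horizontal axis), for the 18 probe sets of the 9 genes, with 95% intervals from the moderated fit; filled points are the brightest probe set of a gene and open points the others. Both Dpep1 intervals lie below 0, and the second probe sets of Serpinf1 (0.18) and Pcolce (0.31) lie above 0.

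The 9 genes, read by their brightest probe sets, did not vary together across the control arrays. Control replicate 1 held the highest value of all 6 arrays for Pi16, Clec3b, Serpinf1, Gsn and Dpt, and control replicate 3 for Dpep1, Fap, Thy1 and Pcolce. Control replicate 2 was highest for 0 of them, so its mean deviation over the 9 genes, -0.07, was beside the -0.06 of deleted replicate 2. The mean deviation was 0.37 in control replicate 1 and 0.29 in control replicate 3, against -0.23 and -0.30 in deleted replicates 1 and 3. Serpinf1, Gsn and Dpt were lowest of the control arrays in replicate 3, and Fap, Thy1 and Pcolce were lowest in replicate 1. The second probe sets did not all keep this order. That of Dpep1 was highest in control replicate 1, at 7.09, and that of Pcolce was lowest of all 6 arrays in control replicate 3, at 10.04. Those of Pi16 and Serpinf1 and most further Gsn probe sets were highest in control replicate 1, as the brightest were. The closest pair of profiles was Clec3b and Serpinf1, with a root mean square difference of 0.13 between their deviations over the 6 arrays. The farthest pair was Thy1 and Gsn at 1.06.

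**Figure D3:**
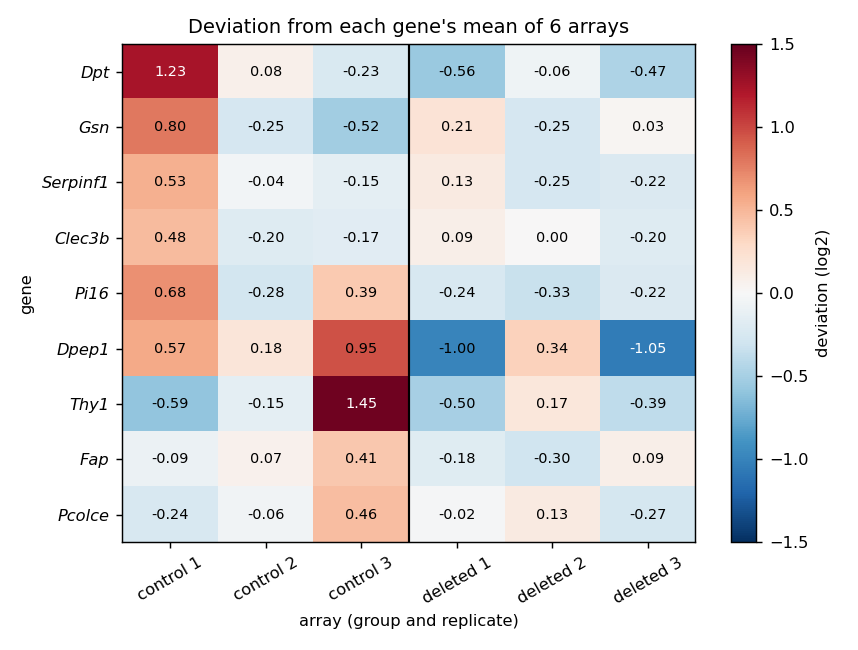
Deviation of the signal (log2, color scale and printed values) from each gene's mean over the 6 arrays, with genes in rows and arrays in columns, control arrays to the left of the line. Control replicate 1 is highest for the upper 5 genes and control replicate 3 for the lower 4.

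The deleted arrays lay closer together than the control arrays for 8 of the 9 genes, the exception being Dpep1. The median SD was 0.39 in control and 0.21 in deleted samples. Over all genes the medians were 0.20 and 0.21, and the deleted SD was the smaller one in 48.0% of genes. The control arrays 1 and 3, on which the 9 genes had their highest values, also differed in markers of other cells. The 6 lymphatic endothelial markers had a mean deviation of 0.62 in control replicate 1 and 0.33 in control replicate 3, and the 5 adipocyte markers had 0.46 and -0.12. In the same 2 arrays the 12 macrophage markers had 0.05 and 0.75, and the 8 pan-leukocyte markers had 0.08 and 0.63. Their part in the spread of the 9 genes was not tested.

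Leaving out single arrays showed how far each gene rested on one of them. Dpep1, Pi16, Fap, Serpinf1 and Dpt kept a negative difference with any 1 array left out. Clec3b and Gsn turned positive without control replicate 1, and Thy1 and Pcolce without control replicate 3. Clec3b (0.01) and Pcolce (0.00) also turned without deleted replicate 3, as Gsn (0.11) did without deleted replicate 2. The count of lower genes ranged from 7 to 9 and the median difference from -0.37 to -0.20.

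**Figure D4:**
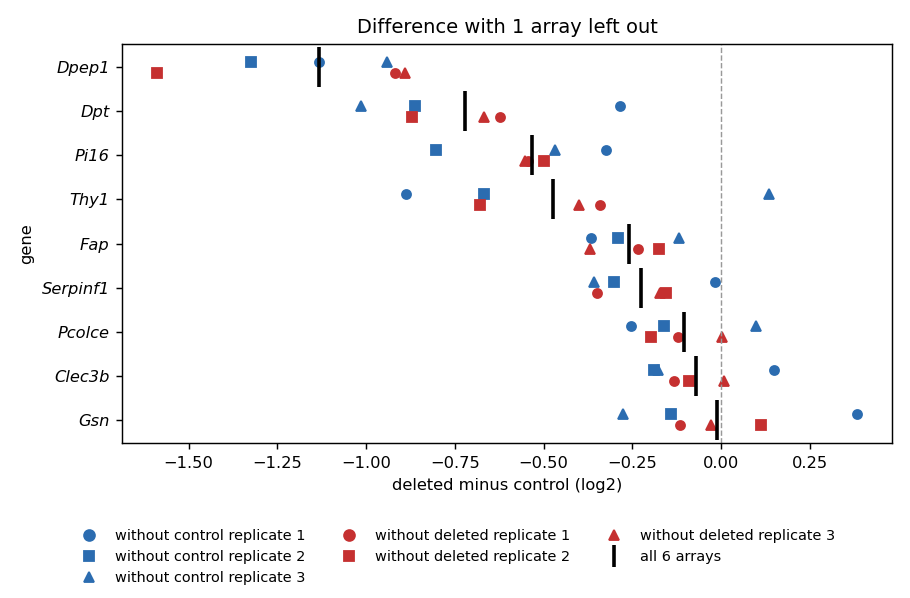
Difference between group means, deleted minus control (log2, horizontal axis), of the 9 genes with each array left out in turn; the marker color and shape give the array left out and the black bar the value with all 6 arrays. Points without control replicate 1 or 3 lie farthest to the right for 8 of the 9 genes, and those of Dpep1 all lie at or below -0.89.

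Other genes of fibroblasts are set beside the 9 by counts, without a test of the lists. All 9 fibroblast collagen genes were lower in deleted samples, with a median of -0.38, and the groups did not overlap for Col14a1 (-1.16), Col1a2 (-0.53), Col5a2 (-0.49) and Col1a1 (-0.38). Over all genes, 49.1% were lower and 2.7% were lower without overlap. Of 22 other fibroblast genes without collagens, 19 were lower, with a median of -0.34. Their largest differences were those of the proteoglycans Ogn (-1.02) and Lum (-0.70) and of the microfibril gene Mfap4 (-0.66), and the fibroblast receptor gene Pdgfra was at -0.59. Lum, Mfap4, Pdgfra and Mfap5 (-0.42) were without overlap. Col14a1 and Ogn, like Dpep1, belong to the genes that the study itself called on these arrays. Of 12 genes of activated fibroblasts, the group known for Fap, 7 were lower (8 after a further quantile normalization), with a median of -0.08. The largest differences were those of Lrrc15 (-0.68, without overlap), Ltbp2 (-0.63) and Mmp11 (-0.32). In this list, Postn was also among the 22 other fibroblast genes, and Acta2 also among the pericyte and smooth muscle markers read below. S100a4, whose promoter drives Fsp-cre, differed by -0.24. None of these genes had an adjusted p under 0.05 in limma's fit. Collagen and other fibroblast genes had their highest mean deviations in control replicates 1 and 3, as the 9 genes had, at 0.18 and 0.47 for the collagens and 0.28 and 0.23 for the others.

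Markers of other cells were also read on these arrays, and none of them passed the adjusted test. All 12 macrophage markers were lower, with a median of -0.71, and 6 of them were without overlap. Of all genes, 49.1% were lower and 2.7% were lower without overlap. The macrophage list includes C1qb, which the study itself called on these arrays. The mean level of the macrophage list was 9.11 to 9.80 in control and 8.48 to 9.00 in deleted samples. Adgre1, which encodes F4/80, was at -0.91. All 8 pan-leukocyte markers were lower, with a median of -0.45 and Ptprc, which encodes CD45, at -0.43. Their mean level was 8.79 to 9.42 in control and 8.25 to 9.10 in deleted samples. Cd53 (-0.38) alone among them was without overlap. The T cell list was mixed, with 4 of 6 lower and Cd3e at 0.15. In contrast, 11 of 12 pan-endothelial markers were higher, with a median of 0.13, Pecam1, the gene of CD31, at 0.39 and Cdh5 at 0.11. No gene of this list was without overlap. Its mean deviation was -0.29 in control replicate 3, against 0.05 and 0.02 in control replicates 1 and 2. Without control replicate 3, Cdh5, Kdr, Flt1 and Cldn5 turned negative and Vwf turned positive. The others stayed positive, with Pecam1 at 0.16. The mean level of the endothelial list was 11.83 to 12.34 over the 6 arrays. That of the epithelial list was 12.16 to 12.62 in control and 11.97 to 12.58 in deleted samples. The sorted samples thus also gave strong signal for epithelial genes, with means over the 6 arrays of 13.83 for Krt8 and 13.80 for Csn2. Of 11 pericyte and smooth muscle markers 9 were higher (8 after a further quantile normalization), with a median of 0.21 and Rgs5 at 0.07. Their largest differences were those of Tagln (0.62), Myh11 (0.41) and Des (0.37). Tagln was higher without overlap, as for 3.61% of all probe sets. All 6 lymphatic markers were lower, with a median of -0.50, and in each the groups overlapped. Reln (-0.94), Lyve1 (-0.62) and Mmrn1 (-0.61) had the largest differences among them. Among the rest, 8 of 9 epithelial markers were lower (median -0.19, Epcam at 0.11), as were 3 of 5 adipocyte markers (median -0.06, Adipoq at 0.06), 4 of 4 Schwann cell markers (median -0.46) and 3 of 5 mesothelial markers (4 after a further quantile normalization, median -0.02). The mean level of the mesothelial list was 4.59 to 4.85 over the 6 arrays. No probe set has a value of 0 on this scale. Whether a change in the mix of cells moved the 9 genes was not tested.

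**Figure D5:**
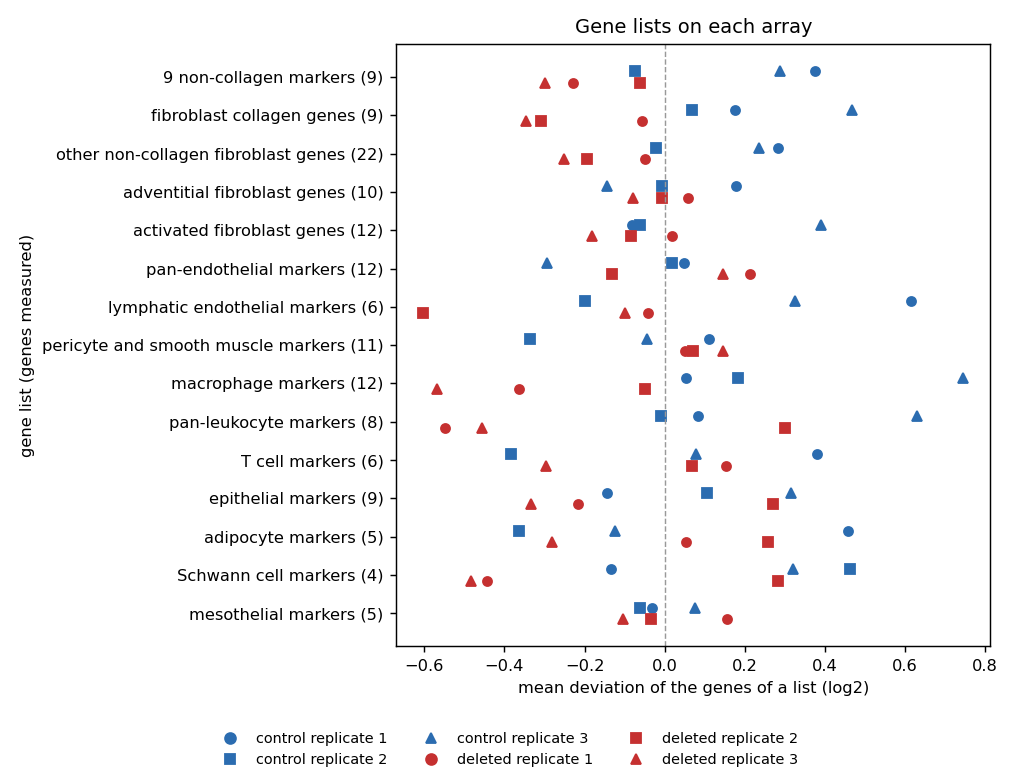
Mean deviation of the genes of a list from their own means (log2, horizontal axis) on each array, for the 9 genes and 14 lists of markers, with the number of genes measured in brackets; blue markers are control and red markers deleted arrays, and the shape gives the replicate. The 9 genes lie at 0.37 and 0.29 in control replicates 1 and 3 and at -0.06 or below on the other 4 arrays, while macrophage markers reach 0.75 in control replicate 3.

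Relatives and binding partners of the 9 proteins were measured for 42 of 48 genes listed, and they did not share a direction. In deleted samples 22 were lower and 20 higher (23 lower after a further quantile normalization), with a median of -0.03. Of the partners of Dpep1 in leukotriene metabolism, Ggt5 differed by -0.25, Ltc4s by 0.09 and Alox5 by 0.06, and its relative Dpep3 by 0.18. The relatives of Pi16 were at -0.18 for Glipr1, 0.37 for Glipr2 and -0.07 for Crispld2. The plasminogen system bound by Clec3b gave 0.31 for Plat, -0.03 for Plau and -0.03 for Plg. The relatives of Fap lay at -0.15 for Dpp4, 0.12 for Dpp8, 0.07 for Dpp9 and 0.18 for Prep. Prep was higher on every deleted array than on any control array, as for 3.61% of all probe sets. The integrin chains that bind Thy1 were at 0.00 for Itgav, -0.22 for Itgb3, -0.28 for Itgb2 and 0.04 for Itgam.

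Among these relatives the largest differences were those of Fn1, Pcolce2 and Serpinf2. Fn1, the fibronectin gene whose product dermatopontin binds, was lower at -0.55 without overlap, Dcn was at -0.42 and Bgn at -0.16, the latter without overlap. Of the 42 genes, 2 were lower without overlap, against 2.7% of all genes. Dcn turned to 0.01 with 1 array left out. Around Pcolce, its relative Pcolce2 differed by -0.46, the C-proteinase gene Bmp1 by -0.34 and Sfrp2 by -0.44, and Tll1 by -0.04. For Serpinf1 the receptor candidates Pnpla2 and Plxdc1 were at -0.02 and -0.09, and its relative Serpinf2 at 0.44. The gelsolin family around Gsn gave 0.12 for Capg, 0.26 for Scin, 0.01 for Svil and -0.26 for Flii. None of the 42 genes had an adjusted p under 0.05 in limma's fit.

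The 8 genes outside the group whose profile over the 6 arrays was most like the mean profile of the 9 were 1700029J07Rik, Tnfsf13b, Oas3, Ccdc122, Mboat1, Lsp1, Aire and Folr2. Their root mean square difference from it ran from 0.07 to 0.10, against a median of 0.32 over all genes and 0.25 for a profile with no variation. The 9 genes themselves lay between 0.19 for Pi16 and 0.64 for Thy1. Among them only Pi16 and Clec3b (0.24) were nearer to the mean profile than a profile with no variation. None of the 8 was on a list of fibroblast genes used here, and likeness over 6 arrays is a description. Pi16, like the mean profile, was above its own mean in control replicates 1 and 3 and below it on the other 4 arrays.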

How the data were processed

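RNA of CD31-sorted cells was profiled on 6 Affymetrix Mouse Genome arrays, 3 per genotype, which the study describes as biological replicates. The authors deposited log2 values made by RMA, which corrects background, normalizes by quantiles and summarizes probes. The sources used here do not give its version. RMA narrows differences of dim probe sets. No further scaling was applied, and the number of arrays limits the precision.

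Of 45101 probe sets, 64 array controls were left out. Of the 45037 kept, 34945 had 1 gene in the platform annotation, 932 several and 9160 none named here. Differences were fitted over all of them by lmFit and eBayes of limma 3.58.1 (R 4.3.3), two-sided and without covariates, with p-values adjusted by Benjamini-Hochberg at 0.05. A self-check of the fit used simulated arrays with independent normal noise. These held no outlying array, so the check does not cover the array that stood apart here. Promoter windows and positions are from RefSeq.

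Groups followed the genotype labels. The members and the lists were chosen with earlier results of these data known. The genes planned to be named were the 9 members, 12 markers, the 3 genes with the largest difference of a described list, relatives and partners, and the 8 most similar profiles. Not all of the largest are printed, and further genes without overlap or with a changed sign are. Alternatives were array weights, a filter on dim probe sets, a trended prior, median centring, quantile normalization, a replicate block, unmoderated tests, other probe set choices and leaving out each array.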

Additional observations from a re-analysis of the deposited data

How the results depend on the processing

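No probe set had an adjusted p under 0.05 in the fit or in any of the 14 alternatives run on that count. At an unadjusted p under 0.05, 934 passed in the fit, fewer than a share of 0.05 of all probe sets. The study's thresholds were passed by 58 probe sets, by 15 above the median signal, by 152 with array weights, by 23 in the unmoderated test, by 317 with the replicate block as a fixed term and by 61 to 191 with 1 array left out. The median difference of the 9 genes, -0.26, stayed between -0.37 and -0.12, and the number of lower genes between 7 and 9. Genes lower without overlap between the groups numbered 0 of the 9, but 2 (Dpep1 and Pi16) with the mean over all probe sets of a gene, as for 2.98% of all genes, and 0 to 2 with 1 array left out, as for 5.57% to 9.06% of all genes. Among single genes, Pi16 moved to -0.09 with array weights, which gave control replicate 2 a weight of 8.32 and the others 0.38 to 0.99. Pcolce moved to 0.20 under the fixed block, where Thy1 was at 0.21 and Dpep1 at -0.70, and Serpinf1 to 0.18 with its probe set of largest spread. The causes were not tested. Dpep1, Pi16, Fap and Dpt kept their sign in every alternative run on them, and the sign changed for Gsn in 5, Pcolce in 4, Clec3b in 3, Thy1 in 2 and Serpinf1 in 1 of 14. The filter removed Dpep1. The block was the number in the animal identifiers, whose meaning the labels do not give. It was shared by only 2 pairs of arrays, whose deviations correlated at 0.17 and -0.02, so it was not taken as a pairing. As a random block it moved no count of the 9 genes. Overlap has no value under the fixed block. RMA signals near background and 3 arrays per group limit all of these values.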
